A study of Mus musculus with 6 samples.

Results

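The genes of radial glia and of the SoxB1 family, which mark the neural progenitor state, were followed library by library in neural progenitor cells (NPCs) with and without Ybx1. They are Sox1, Sox2, Sox3, Sox9, Nes, Vim, Fabp7, Slc1a3, Pax6 and Prom1, chosen by name as markers of this state, and they make up 10 of the 51733 gene symbols in the count tables. Nes stood higher and Slc1a3 lower in every Ybx1-KO library than in any control library. Vim and Sox2, the gene of the sorted reporter, lay at nearly the same mean level in both genotypes. None of the 10 genes passed the test used across all genes, so the differences in Nes, Slc1a3 and Prom1 are given as levels and folds with their errors.

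NPCs were sorted for Sox2 by flow cytometry from the neural tubes of C57BL/6 mouse embryos at E13.5, and stranded total RNA was sequenced as read pairs. The control group held 3 libraries from wildtype embryos. These were siblings of the mutants, according to the study's methods. The Ybx1-KO group held 3 libraries from embryos labelled YBX1KO. The methods describe these as carrying the null allele Ybx1tm1Ley on both copies. The methods give the reporter of the sort, in both groups, as Sox2tm1Hoch, an allele that places eGFP at the Sox2 locus itself. Embryos sorted by it carried a modified Sox2 allele, controls included, so the level of Sox2 RNA is that of reporter animals. The labels also name a dye-based sort as another route to NPCs without saying which library it concerns. The paper's dye targets the protein of Fabp7, a gene of this group, and the paper describes the cells of its RNA-seq as Sox2-positive. The labels name more than 1 sequencer model without saying which library ran on which. The sources used here do not say whether a library came from 1 embryo or from a pool, so the p-values measure the spread between these libraries. Controls 1 and 2 share the first number of their sample titles, and Ybx1-KO 1 and 2 share a different one. Control 3 has another number, and the title of Ybx1-KO 3 has none. The sources used here do not explain the number, and all 6 libraries were treated as independent.

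Radial glia are the stem cells of the embryonic neural tube. Their nuclei lie near the ventricle, a long process reaches the outer surface, and they divide to give neurons and, later, glia. Sox1, Sox2 and Sox3 form the SoxB1 group of transcription factors, which keep neural cells in the progenitor state, and Sox9 prepares the same cells for gliogenesis. Nestin (Nes) and vimentin (Vim) are intermediate filament proteins of the radial process, Fabp7 is the brain lipid-binding protein, and Slc1a3 is the glutamate transporter GLAST. Pax6 patterns the neural tube and drives neurogenesis in part of it, and Prom1 (CD133) sits in the apical membrane. Ybx1 is an RNA- and DNA-binding protein of the cold shock domain family, named for binding to the Y box, a promoter element with a CCAAT core.

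The count of the deleted gene was examined first as a check of the labels. Ybx1 (chromosome 4, 119277981 to 119294604, minus strand, GRCm38) stood at 235, 523 and 301 counts per 1000000 counts on genes (CPM) in controls 1, 2 and 3. It stood at 124, 54.5 and 9.51 CPM in Ybx1-KO libraries 1, 2 and 3. Unless another scaling is named, all CPM given here were scaled with edgeR's TMM factors, which even out differences in the make-up of libraries. No Ybx1-KO library reached the lowest control, but they differed among themselves by 13.0-fold and none was at 0. One count is given per gene, so which stretch of the Ybx1 transcript held the remaining counts was not analysed here.

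The libraries differed in depth and make-up. Controls 1, 2 and 3 held 20841990, 23883542 and 21574427 counts on genes, and Ybx1-KO 1, 2 and 3 held 8483075, 13321952 and 4743279. A gene with 3 counts, the smallest amount taken as shown, therefore stood between 0.138 CPM in control 2 and 0.420 CPM in Ybx1-KO 3, and this limit covers counting error only. Ybx1-KO 3 stood apart from the other libraries. In it 59.5% of read pairs lay outside genes, against 30.6 to 46.7% elsewhere, and 39553 genes had at least 1 count, against 19649 to 30482. The 1942 olfactory, vomeronasal and taste receptor genes, which neural progenitors do not use, stood at 0.785 FPKM (CPM per kilobase of exon, here without TMM) in Ybx1-KO 3 and at 0.00426 to 0.0165 in the other 5 libraries. The main differences below are given with and without Ybx1-KO 3. The 10 housekeeping genes used as an alternative scale, led by Actb, summed to 3562, 5496 and 5391 CPM in controls and 5174, 7623 and 2894 CPM in Ybx1-KO, so the choice of scale could move a level in these libraries.

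RNA of the sex chromosomes also differed between libraries. Xist, the RNA of the inactive X, stood at 734, 3.04 and 479 CPM in controls 1, 2 and 3 and at 4.91, 91.6 and 20.3 CPM in Ybx1-KO 1, 2 and 3. The Y-linked Kdm5d stood at 37.4, 72.6 and 0.150 CPM in the controls and at 36.0, 35.7 and 32.0 CPM in the Ybx1-KO libraries. Control 1 and Ybx1-KO 2 thus held RNA of Xist and of a Y-linked gene together, as did Ybx1-KO 3 at a lower Xist level (145 counts). Control 2 and Ybx1-KO 1 had the least Xist, and control 3 was the only library with Y-linked RNA near 0. The Y-linked Ddx3y, Eif2s3y and Uty were at 0.150 CPM or less in control 3 and at 10.9 CPM or more in each of the other 5. Of the radial glia and SoxB1 genes, Sox3 is X-linked.

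All 10 genes passed the filter on low values in both groups, a mean above 1 FPKM. The quasi-likelihood test of edgeR was run over 21330 genes with p-values adjusted by Benjamini-Hochberg, and a gene was called when its adjusted p was under 0.05 and its levels differed by over 1.5-fold. None of the 10 genes was called, and the share called across all genes was 0%. The deleted gene Ybx1 was itself not called (log2 fold change -2.49, SE 0.68, adjusted p = 0.302, edgeR). DESeq2 called it (log2 fold change -2.44, adjusted p = 0.0236). At an unadjusted p below 0.05 in the same fit, 1 of the 10 was higher in Ybx1-KO (Nes), where the background over all genes was 6.96%, and 1 was lower (Slc1a3), where the background was 4.27%. With 10 genes, 1 gene is the smallest share above 0, so neither count stands apart from its background. DESeq2 called 2 of the 10 and 214 genes in all (1.00%), and limma-voom called none of the 10 and 0 in all. The paper, which used voom with the same thresholds, reports genes changed in both directions. The limma-voom run here did not recover them, and the cause was not tested. In level, 2 of the 10 (Nes and Prom1) had all Ybx1-KO libraries above all controls, against 4.99% of all genes, and 1 (Slc1a3) had them all below, against 8.17%. The median log2 fold change of the 10 was 0.16, with 6 higher and 4 lower. Over all tested genes the median was 0.31 and 61.3% were higher. With total count scaling, where Sox2 changed sign, 7 were higher and 3 lower, beside a median of 0.51 over all genes. Without Ybx1-KO 3 the median of the 10 was 0.21 and that of all genes was -0.07, and none of the 10 was called. Without Ybx1-KO 2 the median of the 10 turned to -0.08 and without control 1 it was 0.04, each with 5 higher and 5 lower. In edgeR 1 of the 10 was called without control 2, where 71 of all 21330 genes (0.333%) were, and 1 without Ybx1-KO 2, where 419 (1.96%) were.

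**Figure D1:**
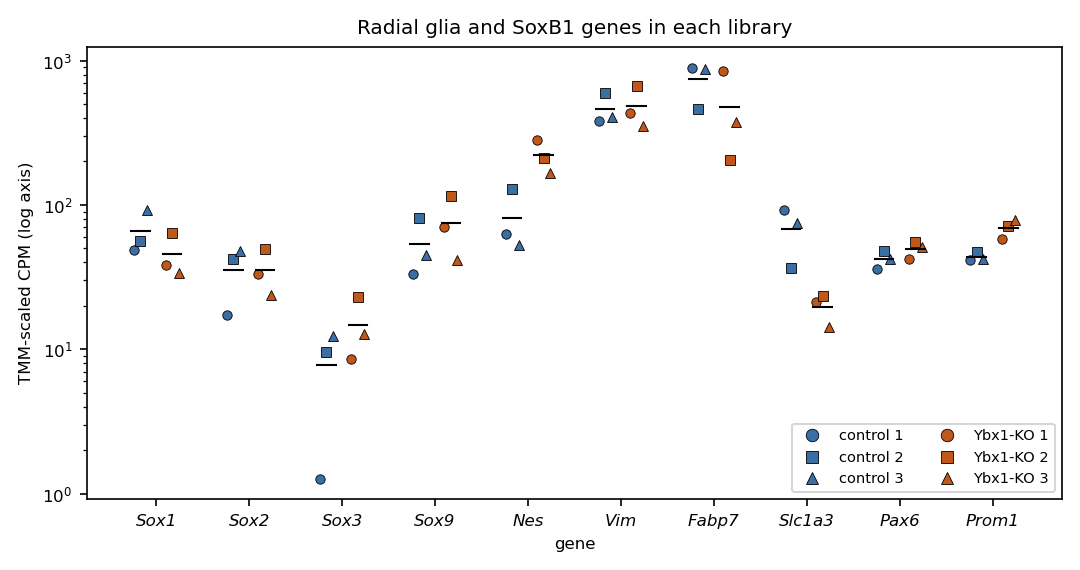
TMM-scaled CPM (log axis) of the 10 radial glia and SoxB1 genes in each of 6 libraries, with controls in blue, Ybx1-KO in orange and a horizontal bar at the mean of the 3 libraries of a group. The groups are separate for Nes and Prom1 (Ybx1-KO above) and for Slc1a3 (Ybx1-KO below) and overlap for the other 7 genes, and the lowest point is Sox3 in control 1 at 1.28 CPM.

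Sox2, the gene of the sorted reporter, is a single-exon gene on chromosome 3 (34650405 to 34652461, plus strand). It stood at 17.2, 42.3 and 47.6 CPM in controls 1, 2 and 3 and at 33.0, 49.8 and 23.8 CPM in Ybx1-KO 1, 2 and 3. The means were 35.7 ± 16.3 and 35.5 ± 13.2 CPM (SD, n = 3 each), and the groups overlapped over nearly their whole range. The log2 fold change was -0.01 (SE 0.44, adjusted p = 0.997, edgeR), and the two-sided exact permutation test of the means gave p = 1. Its sign changed with the scaling, being positive at 0.10 when libraries were scaled by total count. The lowest and the highest control differed by 2.77-fold, while the group means had a ratio of 0.995. The sort selected cells by a reporter at this locus in both genotypes. A like mean level of Sox2 therefore cannot be told apart from an effect of that selection.

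Sox1, the SoxB1 factor most restricted to neural tissue, stood at 48.7, 56.1 and 92.98 CPM in controls 1, 2 and 3 and at 38.5, 64.0 and 34.0 CPM in the Ybx1-KO libraries. The means were 65.9 ± 23.7 and 45.5 ± 16.2 CPM (SD, n = 3 each). Ybx1-KO 1 and 3 lay below all controls and Ybx1-KO 2 lay among them. The log2 fold change was -0.53 (SE 0.40, adjusted p = 0.535, edgeR), with an exact permutation p of 0.3. It was -0.20 without control 3 and -0.86 without Ybx1-KO 2.

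Sox3 was the least abundant of the group in CPM and varied the most between libraries. It stood at 1.28, 9.58 and 12.5 CPM in controls 1, 2 and 3, where the first value rests on 27 counts, and at 8.60, 23.2 and 12.7 CPM in Ybx1-KO 1, 2 and 3. The groups overlapped, with a log2 fold change of 0.93 (SE 0.66, adjusted p = 0.514, edgeR). Without control 1 it was 0.42, and without Ybx1-KO 2 it was 0.46, so the size of the difference rested on those libraries. Sox3 is on the X chromosome (60891366 to 60893430), and control 1, the library with the least Sox3, was the one with the most Xist. Control 3 went the other way, with the next most Xist (479 CPM) and the most Sox3 of the controls.

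The SoxB1 total overlapped between the genotypes, and the shares of Sox1 and Sox3 in it did not. Summed per length, Sox1, Sox2 and Sox3 came to 34.8 ± 14.8 FPKM in controls and 33.9 ± 12.9 FPKM in Ybx1-KO (SD, n = 3 each, exact permutation p = 1). Sox1 made up 52.9, 31.5 and 39.7% of that sum in controls 1, 2 and 3 and 28.3, 27.2 and 28.4% in the Ybx1-KO libraries. Its share was thus lower in every Ybx1-KO library, and it varied little among them. Sox3 made up 3.24, 12.6 and 12.5% in the controls and 14.8, 23.1 and 24.9% in the Ybx1-KO libraries, each of which lay above every control. Both differences in share had an exact permutation p of 0.1, the smallest that 20 splits of 6 libraries can give. The share of Sox2 was 43.8, 55.9 and 47.8% in controls and 57.0, 49.7 and 46.7% in Ybx1-KO, with overlap, and it was the largest of the 3 in each library but control 1. A share does not depend on the scaling between libraries. These shares were chosen as a measure after the levels of the 3 genes had been seen.

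**Figure D2:**
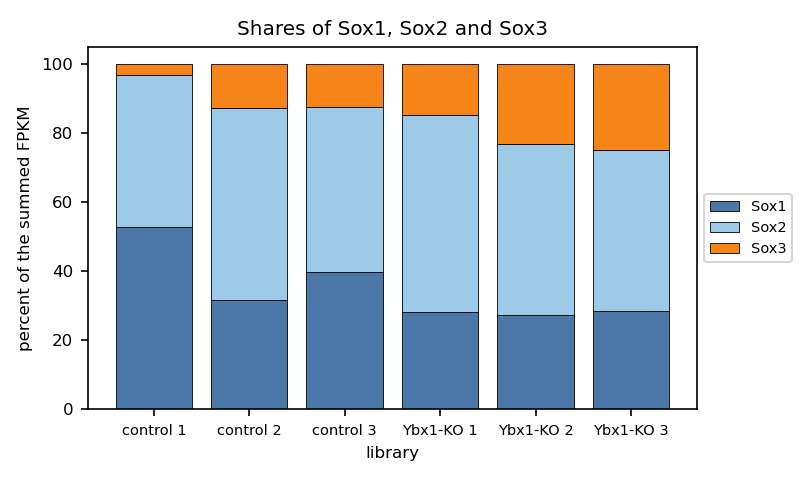
Share of Sox1, Sox2 and Sox3 in their summed FPKM (percent, vertical axis) in each of the 6 libraries, drawn as stacked bars with Sox1 at the bottom. The Sox1 part is between 27.2 and 28.4% in the Ybx1-KO libraries and between 31.5 and 52.9% in the controls, and the Sox3 part at the top is larger in every Ybx1-KO library than in any control.

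Sox9 (chromosome 11, 112782224 to 112787760, plus strand) stood at 33.1, 81.6 and 45.2 CPM in controls and at 70.0, 115 and 41.4 CPM in Ybx1-KO. The groups overlapped, and the log2 fold change of 0.50 (SE 0.45, adjusted p = 0.604, edgeR) was close to its standard error. Leaving out Ybx1-KO 2, its highest library, and applying the filter again brought it to 0.01. Of the 4 other Sox genes listed beside this group, Sox21, a SoxB2 factor that counters SoxB1 activity, stood at 31.4, 44.6 and 30.3 CPM in controls and 26.5, 57.7 and 30.6 CPM in Ybx1-KO. Sox14, the other SoxB2 factor, stood at 18.7, 7.92 and 6.50 CPM in controls and 6.47, 10.3 and 3.50 CPM in Ybx1-KO. Of the SoxE factors, relatives of Sox9, Sox8 lay between 2.10 and 11.2 CPM over the 6 libraries. Sox10, a factor of neural crest and oligodendrocyte precursors, lay between 8.31 and 18.9 CPM in 5 libraries and at 93.9 CPM in Ybx1-KO 2. All 4 overlapped between the genotypes and none was called.

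Nes differed most upward among the 10 genes. It lies on chromosome 3 (87971078 to 87980451, plus strand) in 4 exons. It stood at 63.0, 129 and 52.6 CPM in controls 1, 2 and 3 and at 283, 213 and 165 CPM in Ybx1-KO 1, 2 and 3. The lowest Ybx1-KO library was above the highest control, and the means of 81.4 ± 41.2 and 220.2 ± 59.1 CPM (SD, n = 3 each) differed by 2.70-fold. The log2 fold change was 1.44 (SE 0.45, unadjusted p = 0.00593, adjusted p = 0.387, edgeR), and the exact permutation p of the means was 0.1. With DESeq2 it was 1.52 with an adjusted p of 0.0171. Without Ybx1-KO 3 it was 1.60 (adjusted p = 0.121, edgeR) and without control 1 it was 1.29 (adjusted p = 0.787, edgeR). The Ybx1-KO libraries remained above all controls when scaled by total count or by a list of 10 housekeeping genes.

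Vim, the other intermediate filament gene of the group, did not follow Nes. It stood at 379, 591 and 406 CPM in controls and at 430.2, 666 and 352 CPM in Ybx1-KO, with a log2 fold change of 0.07 (SE 0.47, adjusted p = 0.955, edgeR). The genotypes overlapped, and leaving out Ybx1-KO 2 turned the sign to -0.23. The log2 ratio of Nes to Vim counts within a library, a pair added after the values were seen, was -2.59, -2.20 and -2.95 in controls and -0.61, -1.65 and -1.09 in Ybx1-KO. That ratio was higher in every Ybx1-KO library by a mean of 1.46 (exact permutation p = 0.1).

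Slc1a3 differed most downward. It lies on chromosome 15 (8634124 to 8710764, minus strand) in 13 exon blocks. It stood at 91.8, 36.4 and 74.8 CPM in controls 1, 2 and 3 and at 21.3, 23.5 and 14.3 CPM in Ybx1-KO 1, 2 and 3. All Ybx1-KO libraries lay below all controls, and they, with 102 to 230 counts, were closer to each other than the controls were. The means of 67.6 ± 28.4 and 19.7 ± 4.83 CPM (SD, n = 3 each) gave a ratio of 0.291. The log2 fold change was -1.78 (SE 0.42, unadjusted p = 6.4e-04, adjusted p = 0.237, edgeR), and the exact permutation p was 0.1. It was called by DESeq2 (log2 fold change -1.71, adjusted p = 0.0141), and by edgeR without control 2 (-2.08, adjusted p = 0.0452) or without Ybx1-KO 2 (-1.92, adjusted p = 0.0262). It was not called without control 1 (-1.51, adjusted p = 0.787), without control 3 (-1.70, adjusted p = 0.639), without Ybx1-KO 1 (-1.87, adjusted p = 0.0816, but 0.00986 and called with the filter applied again) or without Ybx1-KO 3 (-1.62, adjusted p = 0.136), all by edgeR.

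Background weighed most on Slc1a3 in Ybx1-KO 3. At the rate per kilobase of the receptor genes, 31.2% of its 102 counts in that library would be background, against 0.216% or less in the other 5 libraries. Subtracting the background from all libraries gave a log2 fold change of -1.85 for Slc1a3 and 1.49 for Nes. In Ybx1-KO 3 the same estimate was 11.9% of the counts of Pax6, 8.45% of Sox3, 4.76% of Prom1, 2.02% of Nes and 0.174% of Fabp7.

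Fabp7 was the most abundant of the 10 genes per length, though not in CPM in every library, and the least alike among the Ybx1-KO libraries. It stood at 894, 462 and 881 CPM in controls and at 842, 204 and 374 CPM in Ybx1-KO. Ybx1-KO 1 lay within the range of the controls and the other Ybx1-KO libraries lay below it, a 4.14-fold spread within the genotype. This gave a log2 fold change of -0.66 (SE 0.57, adjusted p = 0.586, edgeR) and an exact permutation p of 0.2. Without Ybx1-KO 1 it was -1.38 (adjusted p = 0.264, edgeR), and without Ybx1-KO 2 it was -0.29.

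The spread of Prom1 and Pax6 between replicates depended on the scaling: it was narrow with TMM, and with total count scaling the Ybx1-KO libraries ran from 52.4 to 118 CPM for Prom1 and from 40.6 to 77.4 CPM for Pax6. Prom1 (chromosome 5, 43993620 to 44102032, minus strand) stood at 41.8, 47.5 and 42.3 CPM in controls and at 57.9, 71.3 and 78.5 CPM in Ybx1-KO. All Ybx1-KO libraries lay above all controls with TMM and total count scaling, but they overlapped with the scaling by housekeeping genes. The means of 43.9 ± 3.17 and 69.3 ± 10.4 CPM (SD, n = 3 each) differed by 1.58-fold, with a log2 fold change of 0.66 (SE 0.36, adjusted p = 0.451, edgeR) and an exact permutation p of 0.1. Without Ybx1-KO 3, its highest library, the log2 fold change of Prom1 was 0.53 (adjusted p = 0.643, edgeR). Pax6 stood at 36.1, 48.2 and 42.1 CPM in controls and at 42.5, 55.3 and 51.3 CPM in Ybx1-KO, with overlap and a log2 fold change of 0.24 (SE 0.36, adjusted p = 0.761, edgeR).

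**Figure D3:**
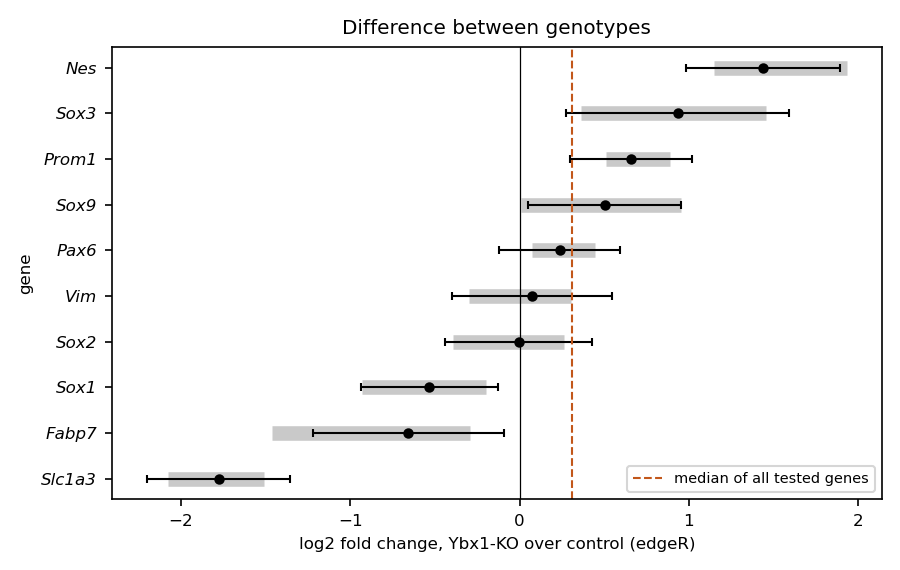
Log2 fold change of each radial glia and SoxB1 gene (Ybx1-KO over control, edgeR, 3 libraries each), with the point at the estimate, the error bar at 1 SE and the grey bar spanning the lowest and highest values over 23 alternative settings. The grey bars of Nes (1.15 to 1.93) and Slc1a3 (-2.08 to -1.51) lie far from 0, those of Sox2 and Vim cross 0, and the dashed line is the median of all tested genes at 0.31.

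The promoters of Nes and Slc1a3, the genes with the largest fold in each direction, are shown because the deleted protein is named for a promoter element with a CCAAT core. Each is the 250 bases before the RefSeq start (GRCm38.p6), written 5′ to 3′ on the strand of the gene, with CCAAT on either strand in capitals (ATTGG where it lies on the other strand). The Nes window is chr3:87970843-87971092 (plus strand) and the Slc1a3 window is chr15:8710808-8711057 (minus strand).
Nes: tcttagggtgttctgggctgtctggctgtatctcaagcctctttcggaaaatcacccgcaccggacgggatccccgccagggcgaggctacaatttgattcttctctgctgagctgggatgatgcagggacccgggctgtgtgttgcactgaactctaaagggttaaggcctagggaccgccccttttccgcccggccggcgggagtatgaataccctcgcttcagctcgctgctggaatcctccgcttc
Slc1a3: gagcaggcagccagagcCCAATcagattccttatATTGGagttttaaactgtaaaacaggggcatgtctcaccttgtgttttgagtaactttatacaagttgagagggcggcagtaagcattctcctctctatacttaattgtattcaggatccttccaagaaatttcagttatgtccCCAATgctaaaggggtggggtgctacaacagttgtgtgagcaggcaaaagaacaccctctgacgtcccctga
The Nes window holds no CCAAT and the Slc1a3 window holds 3. Of the 32851 promoter windows of the same length, 33.8% hold at least 1. Of the 10 genes, 8 had a RefSeq window, 2 of them (Pax6 and Prom1) with more than 1 start. For Slc1a3 and Sox2, the bases checked shortly after the RefSeq start were in no GENCODE M21 transcript of the gene. Those of the other windows were, so the starts of Slc1a3 and Sox2 are less certain. CCAAT occurred 2 times in the windows of Vim and Fabp7 and 1 time in those of Sox1 and Sox2. It occurred 1 time at the first start of Pax6 and of Prom1 and not at the second. Genes with a match thus included ones that were higher, lower and level in Ybx1-KO, and a match of 5 letters is not evidence of binding. Sox3 and Sox9 had no window in the table used.

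The order of the genes was read per length, in TMM-scaled FPKM. In controls the mean levels were 596 for Fabp7, 96.7 for Vim, 17.4 for Sox2, 13.6 for Sox1, 12.9 for Sox9, 12.7 for Nes, 7.92 for Slc1a3, 6.12 for Prom1, 3.76 for Sox3 and 3.604 for Pax6. Fabp7 and then Vim were the top of the order in all 6 libraries. Below Vim, each neighbour in the control order overlapped the next in range, so their places were not separable. In Ybx1-KO the mean levels were 378 for Fabp7, 102 for Vim, 34.3 for Nes, 18.3 for Sox9, 17.3 for Sox2, 9.65 for Prom1, 9.42 for Sox1, 7.19 for Sox3, 4.25 for Pax6 and 2.31 for Slc1a3. There Nes was the third gene in every library, after places 5, 4 and 7 in controls 1, 2 and 3. Slc1a3 was the last in every Ybx1-KO library, after places 3, 9 and 6. Slc1a3 had no overlap with Pax6, its neighbour in the Ybx1-KO order.

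The 10 genes together came to 1606, 1504 and 1697 CPM in controls 1, 2 and 3 and to 1827, 1485 and 1147 CPM in Ybx1-KO 1, 2 and 3, with overlap (exact permutation p = 0.7). Most of that sum was Vim and Fabp7. Their part of it was 79.3, 70.0 and 75.8% in controls and 69.6, 58.6 and 63.3% in Ybx1-KO, lower in every Ybx1-KO library, although control 2 and Ybx1-KO 1 were nearly level.

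Ratios to Sox2 within a library compare each gene with the gene used for the sort and do not depend on scaling. The log2 ratio of Nes to Sox2 counts was 1.87, 1.60 and 0.14 in controls and 3.10, 2.09 and 2.79 in Ybx1-KO, a mean difference of 1.45 (exact permutation p = 0.1). That of Slc1a3 was 2.41, -0.22 and 0.65 in controls and -0.63, -1.08 and -0.73 in Ybx1-KO, a mean difference of -1.76 (exact permutation p = 0.1). The groups overlapped for the other 7 ratios. Prom1, which was separate in CPM, overlapped here with a difference of 0.59 (exact permutation p = 0.4). The difference was 1.29 for Sox3, -0.59 for Sox1, -0.90 for Fabp7, 0.42 for Sox9, 0.18 for Pax6 and -0.01 for Vim. Control 1 had the lowest Sox2 level of all libraries, and among the controls it gave the highest ratio for 7 of the 9 genes. Within each library the log2 ratio of Nes to Slc1a3, a pair added after the values were seen, was -0.54, 1.82 and -0.51 in controls and 3.73, 3.17 and 3.53 in Ybx1-KO, a mean difference of 3.22. Both genes were already separate in level and in opposite directions, so the groups had to separate in this ratio and a test of it adds nothing. Control 2 lay nearest to the Ybx1-KO libraries in this ratio.

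**Figure D4:**
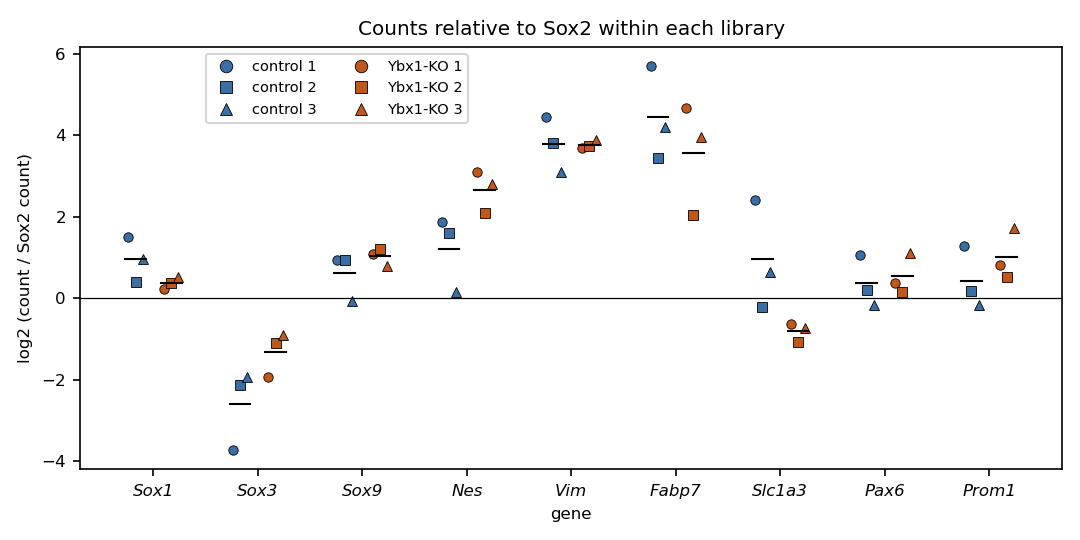
Log2 ratio of the counts of each gene to the Sox2 count of the same library (vertical axis, pseudocount 0.5), with controls in blue, Ybx1-KO in orange and a bar at the mean of 3 libraries. Nes lies higher and Slc1a3 lower in all Ybx1-KO libraries, while the Vim points of Ybx1-KO lie close together at 3.70 to 3.88, inside the wider spread of the controls.

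The pattern over the 6 libraries was compared between genes by the root mean square difference of centred log2 CPM. Sox3 varied most, with a standard deviation of 1.43, followed by Slc1a3 with 1.06 and Nes with 0.97, and Pax6 varied least with 0.22. Of the other 9 genes, the nearest to Sox2 was Vim, at 0.40, and the closest pair was Pax6 and Prom1, at 0.229. Fabp7 was nearest to Slc1a3, though at a wide 0.794, and Nes was nearest to Prom1 at 0.652. Among 5126 protein-coding genes with at least 5 FPKM in each group, the 5 most like Sox2 were Pcgf2 at 0.161, Slc25a23 at 0.161, Cdkn2aipnl at 0.174, Stk40 at 0.178 and Tubg1 at 0.2001. Each of the 5 had its lowest level in control 1, as Sox2 had.

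Other radial glia and neural stem cell genes were divided. Of 24 listed genes 9 were higher and 15 lower in Ybx1-KO. Over all tested genes 61.3% were higher. Their median was -0.24 on the log2 scale, and it ran from -0.51 without control 2 to -0.0030 without control 3. With all libraries edgeR called none. It called 2 without control 2 (0.333% of all genes), 2 without Ybx1-KO 2 (1.96%) and 1 without Ybx1-KO 3 (46 of all genes, 0.216%). The split was 11 higher and 13 lower with total count scaling. At an unadjusted p below 0.05 in edgeR, 4 were higher and 5 lower, beside 6.96% and 4.27% of all genes. The list summed to 1983, 1930 and 2226 CPM in controls and 2173, 2512 and 1276 CPM in Ybx1-KO, and its most abundant gene was Msi1, an RNA-binding protein of neural stem cells. Msi1 stood at 98.9, 249 and 163 CPM in controls and 392, 560 and 179 CPM in Ybx1-KO, with overlap. Among the other genes, named after their values were seen, Hes5, a target of Notch signalling, was the one with all Ybx1-KO libraries above all controls, at 24.0, 20.2 and 29.8 CPM against 70.0, 40.9 and 42.1 CPM. With 4.99% of all genes separated in this way, 1 of 24 is no more than the background. The log2 fold change of Hes5 was 1.05 (SE 0.38, adjusted p = 0.432, edgeR). The paper lists Hes5 among the genes lowered in Ybx1-KO NPCs by its RNA-seq, which is the opposite direction. It also reports lower Hes5 by RT-qPCR in NPCs purified from the brain alone. The Notch1 receptor and Hes1, another Notch target, had log2 fold changes of 1.10 (SE 0.46) and 1.18 (SE 0.54), and both overlapped.

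Among the genes of that list that were lower, also named after their values were seen, were Ptprz1, Hopx, Ddah1, Aldoc and Tnc. Ptprz1, a receptor phosphatase of radial glia, stood at 294, 164 and 184 CPM in controls and 67.1, 103 and 74.7 CPM in Ybx1-KO. Hopx, a marker of outer radial glia in human cortex, stood at 10.4, 7.97 and 11.4 CPM against 2.23, 3.47 and 3.50 CPM, and Ddah1 at 74.8, 75.1 and 139 CPM against 40.7, 49.8 and 24.1 CPM. All Ybx1-KO libraries lay below all controls for these 3 of the 24 genes, beside 8.17% of all genes. Aldoc, an aldolase enriched in astrocytes, stood at 36.9, 3.46 and 56.9 CPM in controls and 0.447, 3.47 and 1.82 CPM in Ybx1-KO, where control 2 was at the Ybx1-KO level. Tnc, an extracellular matrix protein, had a log2 fold change of -3.30 (SE 0.75) with 106, 7.88 and 33.7 CPM in controls and 1.79, 4.19 and 9.09 CPM in Ybx1-KO.

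The late astrocyte genes differed widely in level, and apart from Slc1a2 they were named after their values were seen. Gfap, the filament protein of mature astrocytes, lay between 0.0472 and 0.2001 CPM in the controls, at 0 in Ybx1-KO 1 and 2, and at 2.38 CPM in Ybx1-KO 3, the library with the receptor background. Aqp4 lay at 2.85 CPM or less in every library. Of 7 listed genes 4 were tested and none was called, and the list summed to 203, 429 and 216 CPM in controls and 208, 412 and 196 CPM in Ybx1-KO, mostly from Slc1a2, the other glutamate transporter of astrocytes. Aldh1l1, a folate enzyme of astrocytes, stood at 9.92, 4.88 and 10.2 CPM in controls and 0.670, 1.53 and 3.78 CPM in Ybx1-KO, each below every control. Fgfr3, a growth factor receptor, stood at 27.2, 38.2 and 41.3 CPM in controls and 47.1, 88.9 and 52.6 CPM in Ybx1-KO, each above every control. Each was 1 of the 4 tested genes, and over all tested genes 8.17% lay below in this way and 4.99% above. Gja1, the gap junction protein connexin 43, lay between 16.6 and 29.8 CPM, and S100b at 1.89 CPM or less. Slc1a2 did not follow Slc1a3, at 135, 368 and 140 CPM in controls and 132, 290.1 and 110 CPM in Ybx1-KO.

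Genes of the progeny and of dividing cells were read beside them. The 9 intermediate progenitor genes summed to 353, 399 and 505 CPM in controls and 918, 569 and 290.4 CPM in Ybx1-KO, with Insm1 the most abundant. Of these 7 were higher and 2 lower, where 61.3% of all genes were higher. For 2 of the 9 all Ybx1-KO libraries lay above all controls, beside 4.99% of all genes, and for 0 below. In edgeR 3 were higher and 1 lower at an unadjusted p below 0.05, beside 6.96% and 4.27% of all genes. The 15 neuron genes summed to 3777, 6725 and 4720 CPM in controls and 5445, 4801 and 2223 CPM in Ybx1-KO, with Dcx the most abundant. Neuronal RNA was thus present in every sorted library. Of the 15, 4 were higher and 11 lower with all libraries, where 61.3% of all genes were higher. Without Ybx1-KO 3, 8 were higher and 7 lower, where the median log2 fold change of all genes was -0.07. All Ybx1-KO libraries lay below all controls for 2 of the 15, beside 8.17% of all genes, and above for 0. The 12 cycling genes summed to 758, 1054 and 746 CPM in controls and 930, 1181 and 1009 CPM in Ybx1-KO, with Mki67 the most abundant. Of the 12, 11 were higher with all libraries, beside 61.3% of all genes. With total count scaling 12 were higher, where the median log2 fold change of all genes was 0.51. Without Ybx1-KO 3 the number higher was 9, where that median was -0.07. All Ybx1-KO libraries lay above all controls for 4 of them, beside 4.99% of all genes, and below for 0. At an unadjusted p below 0.05 in edgeR, 3 were higher, beside 6.96% of all genes, and 0 lower. With all libraries edgeR called none of these genes, and the groups overlapped in all 3 sums. It called 1 intermediate progenitor gene without control 2 (0.333% of all genes) and 1 cycling gene without Ybx1-KO 2 (1.96%).

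Genes of the regions of the neural tube varied between libraries of both genotypes. The 7 forebrain genes, of which Lhx2 was the most abundant, summed to 370.1, 131 and 553 CPM in controls 1, 2 and 3 and to 282, 216 and 70.9 CPM in Ybx1-KO 1, 2 and 3, and Emx1 was at 0 in Ybx1-KO 1. The 10 Hox genes of hindbrain and spinal cord, led by Hoxb8, summed to 67.0, 517 and 142 CPM in controls. In Ybx1-KO they summed to 669, 607 and 249 CPM. With all libraries 10 of 10 were higher, beside 61.3% of all genes, and 5 at an unadjusted p below 0.05 in edgeR, beside 6.96%. Without control 1, without control 3 or without Ybx1-KO 2, 9 of 10 were higher. The median log2 fold changes of all genes were then 0.30, 0.35 and 0.30. Control 2, the control with the most Hox RNA and the least forebrain RNA, was also the one with the most Nes and the least Slc1a3. Both sums overlapped between the genotypes, and edgeR called no gene of either list with all libraries. Without control 2 it called 3 Hox and 2 forebrain genes, beside 0.333% of all genes, and without Ybx1-KO 2 it called 2 forebrain genes, beside 1.96%. Of the forebrain genes 2 were higher and 5 lower, with a median log2 fold change of -0.71, which ran from -1.44 without Ybx1-KO 2 to -0.33 without Ybx1-KO 3. The Hox median was 1.23, and it ran from 0.79 without control 1 to 2.39 without control 2. The part of the regional make-up in the Nes and Slc1a3 differences was not tested. In sorted bulk RNA, fewer cells that express a gene and less of its RNA per cell cannot be told apart.

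**Figure D5:**
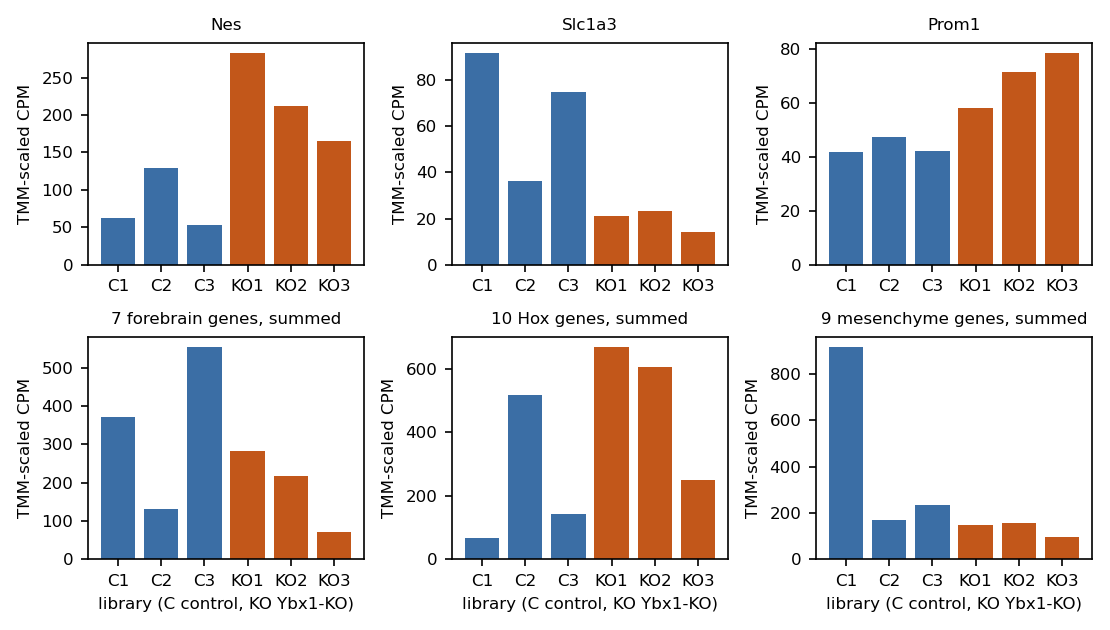
TMM-scaled CPM of Nes, Slc1a3 and Prom1 (top row) and the summed CPM of 7 forebrain, 10 Hox and 9 mesenchyme genes (bottom row) in each library, with controls (C) in blue and Ybx1-KO (KO) in orange, and 1 bar per library with no error bar. Control 2 has the highest Nes and Hox bars and the lowest Slc1a3 and forebrain bars among the controls.

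Markers of choroid plexus and of cells outside the neural tube were present in these libraries, and some were abundant. The 9 mesenchyme and meninges genes summed to 916, 169 and 233 CPM in controls and 149, 157 and 94.6 CPM in Ybx1-KO, lower in every Ybx1-KO library with TMM scaling but overlapping with total count scaling. Of the 8 tested, 8 were lower (6 without Ybx1-KO 3), 5 at an unadjusted p below 0.05, beside 4.27% of all genes, with Col3a1 the most abundant at 323 CPM in control 1. The median log2 fold change was -1.79, and -0.58 without control 1. With all libraries edgeR called none, and it called 2 without control 2 (0.333% of all genes) and 4 without Ybx1-KO 2 (1.96%). None of the 9 was at 0 in any library, and their part in the Slc1a3 difference was not tested. Control 1, the control with the highest mesenchyme sum, was also that with the most Slc1a3. The 5 choroid plexus genes summed to 799.5, 123 and 1026 CPM in controls and 103, 135 and 72.9 CPM in Ybx1-KO, led by Ttr at 693, 38.0 and 936 CPM against 48.1, 55.5 and 19.4 CPM, and Folr1 was at 0 in Ybx1-KO 2. These sums overlapped with TMM scaling. With total count scaling all Ybx1-KO sums lay below all controls, the highest at 109.8 CPM against 111.9 CPM in control 2. Of the 5 genes 4 were lower and 1 higher. In edgeR 2 were lower at an unadjusted p below 0.05, beside 4.27% of all genes, and 0 higher. With all libraries edgeR called none of them, and it called 1 without control 2 (0.333% of all genes) and 1 without Ybx1-KO 2 (1.96%). As for Slc1a3, control 2 had the least choroid plexus RNA of the controls, and the part of this tissue in the difference was not tested.

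The 8 neural crest and Schwann cell genes summed to 210, 504 and 202 CPM in controls and 559, 469 and 251 CPM in Ybx1-KO, with Tfap2b the most abundant, 7 of 8 higher, beside 61.3% of all genes, and 3 with all Ybx1-KO libraries above all controls, beside 4.99%. With all libraries edgeR called none of them, and it called 1 without control 2 (0.333% of all genes), 1 without Ybx1-KO 2 (1.96%) and 1 without Ybx1-KO 3 (0.216%). Nes is also expressed in that lineage, and its part in the Nes difference was not tested. The 7 endothelial genes summed to 51.7, 20.8 and 25.6 CPM in controls and 13.2, 15.6 and 49.0 CPM in Ybx1-KO, led by Cdh5, with Emcn at 0 in Ybx1-KO 2. The 7 microglia and macrophage genes summed to 42.8, 10.6 and 17.7 CPM in controls and 6.81, 6.44 and 39.0 CPM in Ybx1-KO, led by Csf1r. Of these Aif1 and C1qa were at 0 in Ybx1-KO 1, C1qb in Ybx1-KO 1 and 2, and Ptprc in Ybx1-KO 2. The 9 erythroid genes summed to 1200, 969.5 and 515 CPM in controls and 1215, 485 and 200.5 CPM in Ybx1-KO, led by Hbb-y. With all libraries edgeR called 0 of these 9. It called 3 without control 2 (0.333% of all genes), 3 without Ybx1-KO 1 (28 of all 21330 genes) and 2 without Ybx1-KO 2 (1.96%). The neural crest, endothelial, microglial and erythroid sums all overlapped between the groups.

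Transcripts that share a locus with these genes were checked as well, since the strand setting of the counting is not given in the sources used here. Sox2 lies inside Sox2ot, a long noncoding RNA of the same strand with which it shares no annotated exon base. Sox2ot stood at 22.6, 14.7 and 26.2 CPM in controls and 5.13, 14.4 and 28.1 CPM in Ybx1-KO. Sox1 lies with Gm5607 (Sox1ot), at 41.9, 13.2 and 42.6 CPM in controls and 4.69, 12.2 and 16.6 CPM in Ybx1-KO, and shares 86 bases with a miRNA gene that had 0 counts. Prom1 shares 424 exon bases (5.91%) with the antisense gene Gm16401, which stood at 1.70 to 5.93 CPM over the libraries, so at most a small part of the Prom1 counts is uncertain. Pax6os1, antisense to Pax6, stood at 1.26 CPM or less. Nes, Vim, Fabp7, Sox3 and Sox9 overlap no other annotated gene in GENCODE M21, and Slc1a3 shares no exon base with the transcript Gm37310 inside it.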

How the data were processed

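The authors counted read pairs on genes with HTSeq 0.6.1p1, per the submitters' processing notes, on mm10 (GRCm38.p5), and deposited raw counts per gene symbol for each of the 6 libraries, with no normalization or filter. The aligner and the strand setting are not given in the sources used here. Reads that HTSeq tallied outside genes, as ambiguous or as not uniquely aligned stayed out of library sizes and tests. The libraries held 4743279 to 23883542 counts on genes. Replicates differed far beyond counting error (chi-square per degree of freedom 51.0 to 206), so none was a duplicate.

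Exon lengths and coordinates were taken from GENCODE M21 (GRCm38). Of 51733 symbols, 47624 had a match under that symbol, 359 under a former one, and 3750 had none. Genes were tested where control or Ybx1-KO libraries averaged over 1 FPKM, with FPKM from the library totals. Counts were TMM-scaled and tested with edgeR 4.0.16 (quasi-likelihood test, Benjamini-Hochberg adjustment over 21330 genes, biological coefficient of variation 0.800) in R 4.3.3, and called where the adjusted p was under 0.05 and levels differed by over 1.5-fold. The SE of a log2 fold change is its size over the square root of F. Levels, shares and ratios (pseudocount 0.5 counts) were compared by a two-sided exact permutation test over the 20 splits, whose smallest p is 0.1. FPKM in the text is TMM-scaled CPM per kilobase of exon, except for the filter and for the background, which was estimated on 1942 receptor genes from library totals.

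The genes and lists were chosen with earlier results of these data known. The text names the 10 genes, Ybx1, the most abundant gene of each list, the other Sox, neighbouring and sex genes, and the 5 genes most like Sox2. Genes named for being at 0 in a library, and all others, were named after their values were seen. Promoters came from RefSeq (GRCm38.p6), searched for CCAAT on both strands. AACAAT, a Sox-type motif, and TATAAA were searched likewise (9.42 and 12.4% of all windows). AACAAT was in no window of the 10 genes, and TATAAA was in 1 each of Vim and Slc1a3. Alternatives were limma-voom (limma 3.58.1, the test of the study), DESeq2 1.42.0, DESeq2 size factors, total count, upper quartile and housekeeping scaling, no filter, a CPM above 1 in 3 libraries, protein-coding genes alone, robust dispersion, background subtraction, a pseudocount of 5 and leaving out each library. Leaving out each library with the filter applied again was added after seeing the data. The fits were first tested on simulated data. The simulated replicates varied less than these libraries, whose biological coefficient of variation was 0.800. That test therefore does not show how many real differences would be called here. Figures were drawn with matplotlib 3.10.9.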

Additional observations from a re-analysis of the deposited data

Results flagged for a closer look

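One result outside the comparisons stood out. The 1942 olfactory, vomeronasal and taste receptor genes, which served only to estimate background, stood at 0.785 FPKM in Ybx1-KO 3, against 0.00426 and 0.00437 in Ybx1-KO 1 and 2 and 0.00545 to 0.0165 in the controls. The same library had the fewest counts on genes and the largest share of read pairs outside genes.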

How the results depend on the processing

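Nes, Prom1, Sox3, Sox9 and Pax6 were higher and Slc1a3, Fabp7 and Sox1 lower in Ybx1-KO in each of the 23 alternative fits, and the log2 fold change ranged from 1.15 to 1.93 for Nes and from -2.08 to -1.51 for Slc1a3. Across all genes 193 were called without a filter and 214 by DESeq2, against 0 with edgeR, and leaving out each library gave 0 to 725. Of the 10 genes DESeq2 called 2, Nes and Slc1a3, and leaving out each library gave 0 to 1, always Slc1a3. The cause of these changes was not tested. The log2 fold change of Sox2 turned to 0.0633 with DESeq2 size factors, 0.0630 with DESeq2, 0.10 with total count scaling, 0.0395 with upper quartile scaling, 0.0745 with a CPM above 1 in 3 libraries, 0.0596 with protein-coding genes, 0.0802 with limma-voom and 0.0300 with background subtracted, and ran from -0.39 to 0.26 over the libraries left out. That of Vim turned to -0.0237 without a filter and ran from -0.30 to 0.30. The log2 ratio of the mean levels was 0.10 for Sox2 with total count scaling and, over the libraries left out, ran from -0.34 to 0.26 for Sox2 and from -0.23 to 0.30 for Vim. The log2 ratio of Vim to Sox2 was 0.00745 with background subtracted and ran from -0.36 to 0.33, and that of Pax6 to Sox2 from -0.10 to 0.53. Total count scaling moved the median over all genes from 0.31 to 0.51. No paired analysis was possible because no first title number is shared across genotypes and the title of Ybx1-KO 3 has none. Depth limited the Ybx1-KO libraries most, where 3 counts came to 0.420 CPM in Ybx1-KO 3.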
